A study of Mus musculus with 14 samples.

Results

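The last exon bins at the 3′ ends of genes were examined in C2C12 cells, a mouse myoblast line, after depletion of isoforms of Quaking (Qk) by transfected siRNA. An exon bin is a stretch of exon that the transcripts of a gene use or skip as a whole, and bins are numbered along the genome within each gene. The last bin was taken as the highest-numbered bin of a gene on the plus strand and as bin 1 of a gene on the minus strand, which gave 228 last bins among the 4019 bins of 228 genes. Of these, 215 had an adjusted p and 13 did not.

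The groups compared were Qk6/7 depletion (siRNA against the Qk6 and Qk7 isoforms), Qk5 depletion (siRNA against the Qk5 isoform) and control siRNA, with 3 replicates each. All were C2C12 cells grown in DMEM with 10% fetal bovine serum and transfected with Lipofectamine 2000, and RNA was depleted of ribosomal RNA before sequencing. Replicate 1 of each group was sequenced in 2 runs, and no label ties a replicate to a culture of its own. The spread behind the p-values may therefore be technical in part or whole. A pan-Qk depletion with 1 replicate was not analysed here.

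The deposited values are the authors' log2 folds of bin use and 1 DEXSeq p over the 3 conditions for each bin, with no value per replicate. Depth per sample is unknown and no SD can be given. Bin use is relative to the gene's other bins, so a fold of a last bin is not a fold of the gene's RNA, and the fold in either depletion was not tested on its own. The Qk gene, at the level of the whole gene and not of its isoforms, averaged 5271 normalized counts in Qk6/7 depletion, 3267 in Qk5 depletion and 5875 in control cells (means of the authors' deposited table). Of 5 myoblast markers 1 is listed, Myf5, with means of 1521.5 in Qk6/7 depletion, 969.8 in Qk5 depletion and 810 in control cells by the authors' deposited table, which is a selection of genes. The 6 markers of differentiated muscle summed to 2980.5 normalized counts in Qk6/7 depletion, 5280.8 in Qk5 depletion and 2102.4 in control cells by the authors' deposited table. Of 3 fibroblast markers 1 is listed, Dcn, with means of 604.6 in Qk6/7 depletion, 1950.6 in Qk5 depletion and 660.2 in control cells by the authors' deposited table. The part of either cell state in the results on last bins was not tested.

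The last exon of a messenger RNA usually carries the end of the coding sequence, the stop codon and most of the 3′ untranslated region, and it ends where cleavage and polyadenylation factors cut the RNA behind a poly(A) signal. A gene can have several last exons, chosen by splicing or by use of a poly(A) site inside an intron, and several poly(A) sites within 1 last exon. Qk5 is mainly a nuclear protein that regulates splicing, whereas Qk6 and Qk7 are found in the cytoplasm as well, and all isoforms share a domain that binds RNA at ACUAAY and nearby UAAY elements.

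The bins have mm9 coordinates and the sequences available were those of GENCODE M21 transcripts on GRCm38. A bin was joined to an annotated last exon only by symbol, chromosome, strand and exactly equal length, which matched 98 of the 228 last bins and 27 of the 64 called ones. Of the 27, 26 belonged to coding transcripts, and in 22 of these the exon held coding sequence before its 3′ UTR. Over all 26, the medians were 114 coding bases and 3022.5 bases beyond them. The following 30-base runs lie near the end of the matched annotated exon, for called bins with large folds. They are read 5′ to 3′ on the gene's strand in GRCm38, with the poly(A) signal word AATAAA or ATTAAA in capitals.
Syngr1, chr15:80119465-80119494, plus strand: tggtgacatagtAATAAAgtgaagagtcaa
Dclk1, chr3:55539019-55539048, plus strand: tgttcttaaactAATAAAgtcatatctctt
Tasp1, chr2:139833485-139833514, minus strand: taaaggtacaaaAATAAAagaagcctatta
Ero1l, chr14:45283094-45283123, minus strand: ggcgtggggggcAATAAAgatgaaaataat
Ap1s2, chrX:163933330-163933359, plus strand: catcaccaattaatgtAATAAAtgttctgc
Zdhhc3, chr9:123066161-123066190, minus strand: caaagtgctgagATTAAAagtgtgcaccac
The word lay 19 bases before the annotated end in Syngr1, 32 in Dclk1, 17 in Tasp1, 19 in Ero1l, 8 in Ap1s2 and 13 in Zdhhc3. Such a match describes the letters, and use of the word as a poly(A) signal was not tested. The Zdhhc3 exon belongs to a transcript annotated as a target of nonsense-mediated decay. Searched on the RNA strand in the last 50 bases, AATAAA or ATTAAA was present in 25 of 27 matched called last exons (92.6%), in 56 of 68 matched last exons that were tested and not called (82.4%), and in 74.1% of the last exons of 20484 coding genes.

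The Quaking element was searched on the RNA strand as ACTAAC and ACTAAT, which can share letters with a poly(A) signal, as ACTAAT does with AATAAA in the last exon of Dclk1. In the first 500 bases of last exons at least that long, either word was present in 6 of 26 called (23.1%), in 4 of 57 not called (7.02%) and in 10.7% of 15908 coding genes. For ACTAAT alone the shares there were 15.4%, 1.75% and 5.57%, and for ACTAAC alone 7.69%, 5.26% and 5.47%. In the final 500 bases either word was present in 15.4% of called, 22.8% of not called and 16.3% of coding genes. The ACTAAC sites in the 3′ UTR of matched last exons of Ap1s2, Saal1 and Zdhhc3 are shown next, with the word in capitals and GRCm38 coordinates.
Ap1s2, chrX:163932689-163932718, plus strand: tgcttttagaggACTAACttagaatgatgc
Saal1, chr7:46688349-46688378, minus strand: agggaaggtgtaACTAACttaggcttggag
Zdhhc3, chr9:123068249-123068278, minus strand: agtgtcacaaacACTAACtgatcctccatg
The word began at position 569 of the exon in Ap1s2, 1090 in Saal1 and 2353 in Zdhhc3, counted from 1 at its 5′ end. None of these sites lies in the first 500 bases, so they are not part of the shares given for that stretch. A match is a description of the letters and was not tested as a binding site.

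Last bins were called by the authors' DEXSeq test at an adjusted p under 0.05 in 64 of the 215 tested (29.8%), against 6.18% of all 3737 tested bins in the table. The first bins of the same genes were called in 8 of 201 (3.98%) and internal bins in 159 of 3321 (4.79%). At adjusted p under 0.1 the counts were 77 last bins (35.8%), against 7.44% of all tested bins. Last bins made up 27.7% of the 231 called bins and 5.75% of the tested ones. The table is a selection of genes with a bin at adjusted p under 0.1, out of about 142000 bins tested (0.163% called), and how many of those were last bins is not known here. In genes with another bin at adjusted p under 0.1, 19 of 159 last bins were called (11.9%), against 1.6% of other bins.

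The share of calls went with bin length. Tested last bins had a median length of 1628 nt, against 129 nt for other tested bins. Among bins of 700 nt or more, 56 of 169 last bins were called (33.1%), against 82 of 294 other bins (27.9%). Among bins of 300 to 699 nt the counts were 6 of 37 last bins (16.2%) and 21 of 209 others (10%). Under 300 nt they were 2 of 9 last bins (22.2%) and 64 of 3019 others (2.12%). The difference between last and other bins at equal length was not tested, and the part of length in the overall share was not tested.

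**Figure D1:**
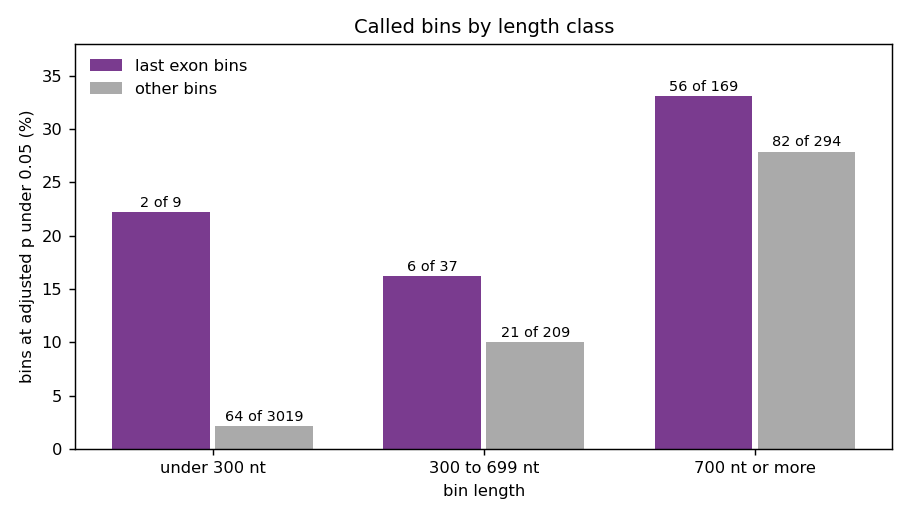
Percentage of tested bins called at adjusted p under 0.05, for last exon bins (left bar of each pair) and other bins (right bar), in 3 classes of bin length, with the counts above the bars. At 700 nt or more 33.1% of last bins and 27.9% of other bins were called.

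Called last bins had mostly small folds, and most were used less in Qk6/7 depletion. In Qk6/7 depletion 50 of the 64 had a lower use than in control cells and 14 a higher one, 23.3% and 6.51% of tested last bins, against 3.61% and 2.52% of all tested bins. In Qk5 depletion 37 were higher, 25 lower and 2 at 0, where the shares were 17.2% and 11.6% of tested last bins, against 3.1% and 2.97% of all tested bins. Other called bins were split as 80 higher and 85 lower in Qk6/7 depletion and as 79 higher and 86 lower in Qk5 depletion. Other called bins of 700 nt or more had 39 higher and 43 lower in Qk6/7 depletion.

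The median log2 fold of called last bins was -0.17 in Qk6/7 depletion (-1.19 to 1.23) and 0.03 in Qk5 depletion (-2.63 to 2.74). For 38 of the 64 both folds were within 0.5 of 0, and for 10 a fold passed 1 in either direction. The larger of a bin's folds in absolute size had a median of 0.435, against 0.89 for other called bins and 0.77 for other called bins of 700 nt or more. In Qk6/7 depletion 20 called last bins lay under -0.3 and 3 above 0.3, while in Qk5 depletion 11 lay under -0.3 and 18 above 0.3. Between the depletions, by the deposited log2 fold of Qk6/7 over Qk5 depletion, 50 called last bins were lower in Qk6/7 depletion (23.3% of tested last bins, against 3.72% of all tested bins), 13 were higher (6.05%, against 2.44%) and 1 was at 0, with a median of -0.28. These depletions share their control libraries, and no p for the difference between them is deposited.

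Of the 151 tested last bins that were not called, 103 were lower in Qk6/7 depletion, 46 higher and 2 at 0, with a median log2 fold of -0.06. Over all 215 tested last bins 71.2% were lower in Qk6/7 depletion, with a median of -0.08, against 41.7% and a median of 0.03 for other tested bins. In Qk5 depletion 47.9% of tested last bins were lower, with a median of 0, against 49.5% and a median of 0 for other tested bins.

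Along the genes the median was lowest at the last bin in Qk6/7 depletion. In Qk6/7 depletion the bin next to the last had a median log2 fold of -0.01 over 214 tested bins, with 51.4% lower, and the bin before that a median of 0 over 218, with 46.8% lower. Bins 10 or more places from the 3′ end had a median of 0.04, with 37.5% lower. At the 5′ ends the first bins had a median of 0.02 in Qk6/7 depletion and -0.08 in Qk5 depletion, with 41.3% and 64.2% lower. RNA integrity of the libraries is not among the deposited values, and its part in these shifts was not tested.

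**Figure D2:**
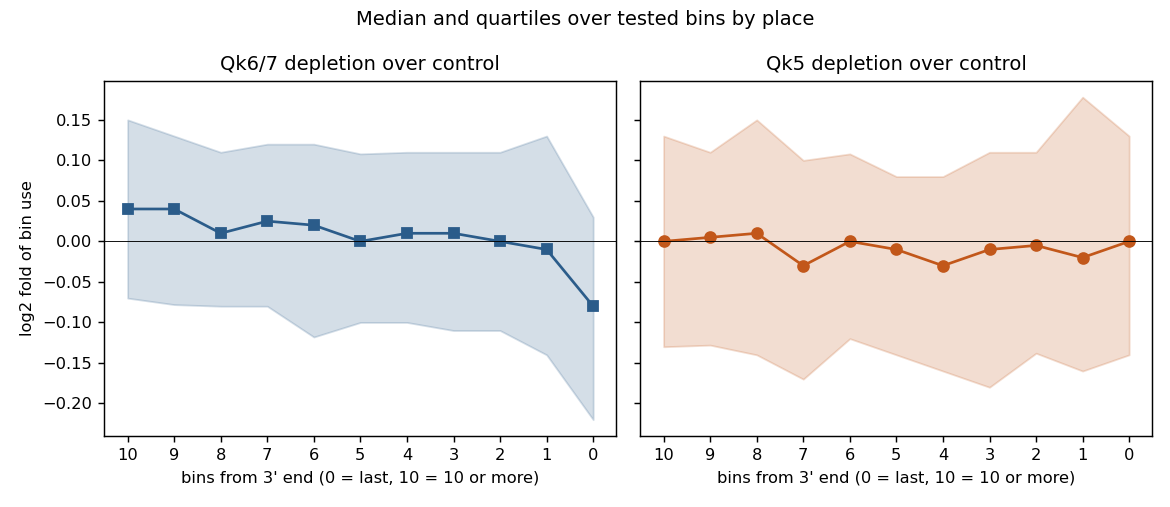
Median log2 fold of bin use (line) and the range between quartiles (shading) by place counted from the 3′ end, where 0 is the last bin and 10 stands for 10 or more, for Qk6/7 depletion (left) and Qk5 depletion (right) over control. The median at place 0 was -0.08 in Qk6/7 depletion and 0 in Qk5 depletion.

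The rule for named bins took the 15 called bins with the largest and the 15 with the smallest log2 fold in either depletion, with Dnajc17 in both sets, and 27 of these 29 are described. Their coordinates below are those of mm9, and each adjusted p is the authors' DEXSeq value over the 3 conditions.

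**Figure D3:**
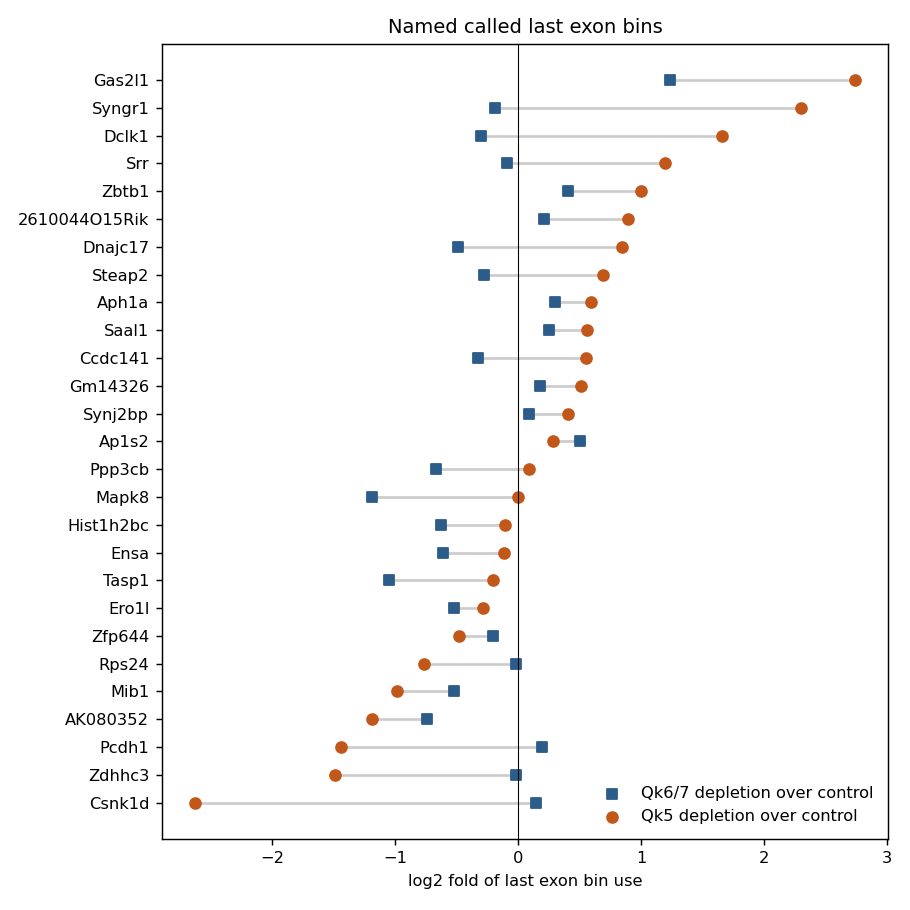
Log2 fold of use over control of 27 named last exon bins in Qk6/7 depletion (squares) and Qk5 depletion (circles), ordered by the fold in Qk5 depletion, 1 gene per line. Gas2l1 stands at the top with 2.74 in Qk5 depletion and Csnk1d at the bottom with -2.63.

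The called last bins used most above control in Qk5 depletion were those of Gas2l1, Syngr1, Dclk1 and Srr. The last bin of Syngr1 (synaptogyrin 1, a protein of synaptic vesicles), at chr15:79946285-79949931 and 3647 nt long, had log2 folds of -0.19 in Qk6/7 depletion and 2.30 in Qk5 depletion in the authors' deposited table (adjusted p = 3.43e-30). Upstream of it, a bin of 275 nt stood at 0.06 and -1.08 in the same order in the authors' deposited table and was called as well (adjusted p = 9.21e-06). A further 2 bins of Syngr1 were called, at -0.79 and -0.60 in Qk5 depletion, so that 4 of its 5 bins were called and only the last was higher there. The matched exon of Syngr1 holds 219 coding bases, and GENCODE gives the gene 2 separate last exons.

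Gas2l1, which links actin filaments to microtubules, had the largest fold of any called last bin in both depletions. Its last bin at chr11:4954134-4956692, on the minus strand and 2559 nt long, stood at 1.23 in Qk6/7 depletion and 2.74 in Qk5 depletion in the authors' deposited table (adjusted p = 2.17e-06). Its neighbouring bin stood at 0.23 in Qk6/7 depletion and -0.07 in Qk5 depletion, and the median over the other bins of Gas2l1 was -0.06 and -0.07. Farther upstream, a Gas2l1 bin of 1348 nt was called as well (adjusted p = 0.0365 by the authors' DEXSeq test). It stood at 0.01 in Qk6/7 depletion and -0.23 in Qk5 depletion. The dispersion of the Gas2l1 last bin, 0.057, was high against the median of 0.001995 for called last bins. The RNA of Gas2l1 as a whole fell in Qk5 depletion, to a mean of 1278 normalized counts against 2477 in control cells by the authors' deposited table (0.516-fold, the authors' DESeq adjusted p = 0.00068).

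Dclk1, a kinase with doublecortin domains that bind microtubules, had a last bin of 5499 nt at chr3:55337492-55342990 with log2 folds of -0.30 in Qk6/7 depletion and 1.66 in Qk5 depletion in the authors' deposited table (adjusted p = 0.00011). Its other bins had a median of 0.65 in Qk5 depletion, and 4 of them were called. The dispersion of this bin was 0.0622. GENCODE gives Dclk1 4 separate last exons.

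In Srr (serine racemase, which makes D-serine) the last bin at chr11:74717530-74719441 stood at -0.09 in Qk6/7 depletion and 1.19 in Qk5 depletion in the authors' deposited table (adjusted p = 0.0009). A bin of 2485 nt precedes it and stood at -0.06 and -0.12. Zbtb1, a zinc finger repressor of transcription, had a last bin of 1187 nt at 0.40 in Qk6/7 depletion and 1.00 in Qk5 depletion in the authors' deposited table (adjusted p = 0.0152). It follows a bin of 1608 nt, which stood at -0.10 and -0.21.

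Several last bins were higher in Qk5 depletion and lower in Qk6/7 depletion relative to control. Dnajc17, a J-domain cochaperone, had a short last bin of 186 nt with log2 folds of -0.49 in Qk6/7 depletion and 0.84 in Qk5 depletion in the authors' deposited table (adjusted p = 1.83e-05). Steap2, a metalloreductase, stood at -0.28 and 0.69 in the same order in the authors' deposited table (adjusted p = 0.0231). Ccdc141, a centrosomal protein, stood at -0.33 in Qk6/7 depletion and 0.55 in Qk5 depletion in the authors' deposited table (adjusted p = 0.0115).

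Others were higher in both depletions. Aph1a, a subunit of gamma-secretase, had a last bin of 824 nt that abuts the bin before it, at 0.30 in Qk6/7 depletion and 0.59 in Qk5 depletion in the authors' deposited table (adjusted p = 0.00104). The abutting bin of Aph1a, 773 nt long, stood at -0.06 and -0.08. Saal1 stood at 0.25 in Qk6/7 depletion and 0.56 in Qk5 depletion in the authors' deposited table (adjusted p = 0.000618). Ap1s2, the small sigma subunit of the AP-1 clathrin adaptor, stood at 0.50 in Qk6/7 depletion and 0.28 in Qk5 depletion in the authors' deposited table (adjusted p = 0.000892), and was the single named bin of these whose fold was larger in Qk6/7 depletion. Another bin of Ap1s2 was called as well, with a lower adjusted p than its last bin. Synj2bp, a protein of the outer mitochondrial membrane, stood at 0.09 in Qk6/7 depletion and 0.40 in Qk5 depletion in the authors' deposited table (adjusted p = 0.000409).

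The last bins of 2610044O15Rik and Gm14326 stood at 0.21 and 0.18 in Qk6/7 depletion and at 0.89 and 0.51 in Qk5 depletion in the authors' deposited table (adjusted p = 0.000362 and 0.035). Another bin of Gm14326 was called as well, with a lower adjusted p than its last bin. Gm14326, like the called Etohi1 and 100043387, lies in a block of related zinc finger genes on chromosome 2, where reads may be split between similar copies, so these values are uncertain.

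The called last bin used least against control was that of Csnk1d, casein kinase 1 delta, a kinase of the circadian clock. Its last bin of 831 nt at chr11:120819779-120820609 had log2 folds of 0.14 in Qk6/7 depletion and -2.63 in Qk5 depletion in the authors' deposited table (adjusted p = 1.27e-06). A bin of 2166 nt lies 2445 bases upstream and stood at 0.01 in Qk6/7 depletion and 0.08 in Qk5 depletion, and no other bin of Csnk1d was called. Its other bins in Qk5 depletion lay between -0.24 and 0.27.

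Zdhhc3, a palmitoyltransferase of the Golgi, had a last bin of 4459 nt at -0.02 in Qk6/7 depletion and -1.49 in Qk5 depletion in the authors' deposited table (adjusted p = 0.0122). Its neighbour, a bin of 6012 nt, stood at -0.21 and 0.32 and was called as well (adjusted p = 0.00185 by the authors' DEXSeq test). The dispersion of the last bin, 0.0692, was again high. Pcdh1, a protocadherin of cell contacts, stood at 0.19 in Qk6/7 depletion and -1.44 in Qk5 depletion in the authors' deposited table (adjusted p = 0.0336). The preceding bin of Pcdh1 stood at 0.36 and -1.08, in the same directions.

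Other last bins were lower in both depletions. Mib1, a ubiquitin ligase for Notch ligands, stood at -0.52 in Qk6/7 depletion and -0.99 in Qk5 depletion in the authors' deposited table (adjusted p = 0.00113). The unit named AK080352 stood at -0.74 and -1.19 in the same order in the authors' deposited table (adjusted p = 0.0395). The preceding bin of this unit, 79 nt long, stood at 2.19 in Qk6/7 depletion and 2.94 in Qk5 depletion and was not called.

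Zfp644, a zinc finger protein, stood at -0.21 in Qk6/7 depletion and -0.48 in Qk5 depletion in the authors' deposited table (adjusted p = 0.00306). Rps24, a protein of the small ribosomal subunit, had a last bin of 287 nt at -0.02 in Qk6/7 depletion and -0.77 in Qk5 depletion in the authors' deposited table (adjusted p = 0.0438). Ribosomal protein genes have many processed copies in the genome, so the counts behind Rps24 are uncertain.

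Bins with their larger fold in Qk6/7 depletion were all lower there except that of Ap1s2. Mapk8, the kinase JNK1, had a last bin of 2897 nt at chr14:34191084-34193980 with log2 folds of -1.19 in Qk6/7 depletion and 0.00 in Qk5 depletion in the authors' deposited table (adjusted p = 3.71e-06). This bin abuts one of 1525 nt that stood at -0.06 in Qk6/7 depletion and -0.10 in Qk5 depletion, so the lower use lay in the stretch farther from the gene's start. No other bin of Mapk8 was called, and an uncalled bin of 1177 nt stood at -0.11 in Qk6/7 depletion and 1.35 in Qk5 depletion.

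Tasp1 (taspase, a protease that cleaves the MLL protein) had a last bin of 968 nt at -1.05 in Qk6/7 depletion and -0.21 in Qk5 depletion in the authors' deposited table (adjusted p = 0.000166). The preceding bin of Tasp1 stood at -0.76 and -0.50, in the same directions. Ppp3cb, a catalytic subunit of the phosphatase calcineurin, stood at -0.67 in Qk6/7 depletion and 0.09 in Qk5 depletion in the authors' deposited table (adjusted p = 0.000608). Another bin of Ppp3cb was called as well, with a lower adjusted p than its last bin. Ensa, an inhibitor of the phosphatase PP2A, had a last bin of 686 nt at -0.61 in Qk6/7 depletion and -0.12 in Qk5 depletion in the authors' deposited table (adjusted p = 0.000217), behind a bin of 1786 nt at 0.15 and 0.03.

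Hist1h2bc, a histone H2B gene, stood at -0.63 in Qk6/7 depletion and -0.11 in Qk5 depletion in the authors' deposited table (adjusted p = 0.0485). Its sequence is close to that of other H2B genes, so its value is uncertain. Ero1l, an oxidase of the endoplasmic reticulum that forms disulfide bonds, stood at -0.52 in Qk6/7 depletion and -0.29 in Qk5 depletion in the authors' deposited table (adjusted p = 9.38e-06). Its gene-level RNA also fell in Qk6/7 depletion, to a mean of 886.5 normalized counts against 1731 in control cells by the authors' deposited table (0.512-fold, the authors' DESeq adjusted p = 0.00406).

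**Figure D4:**
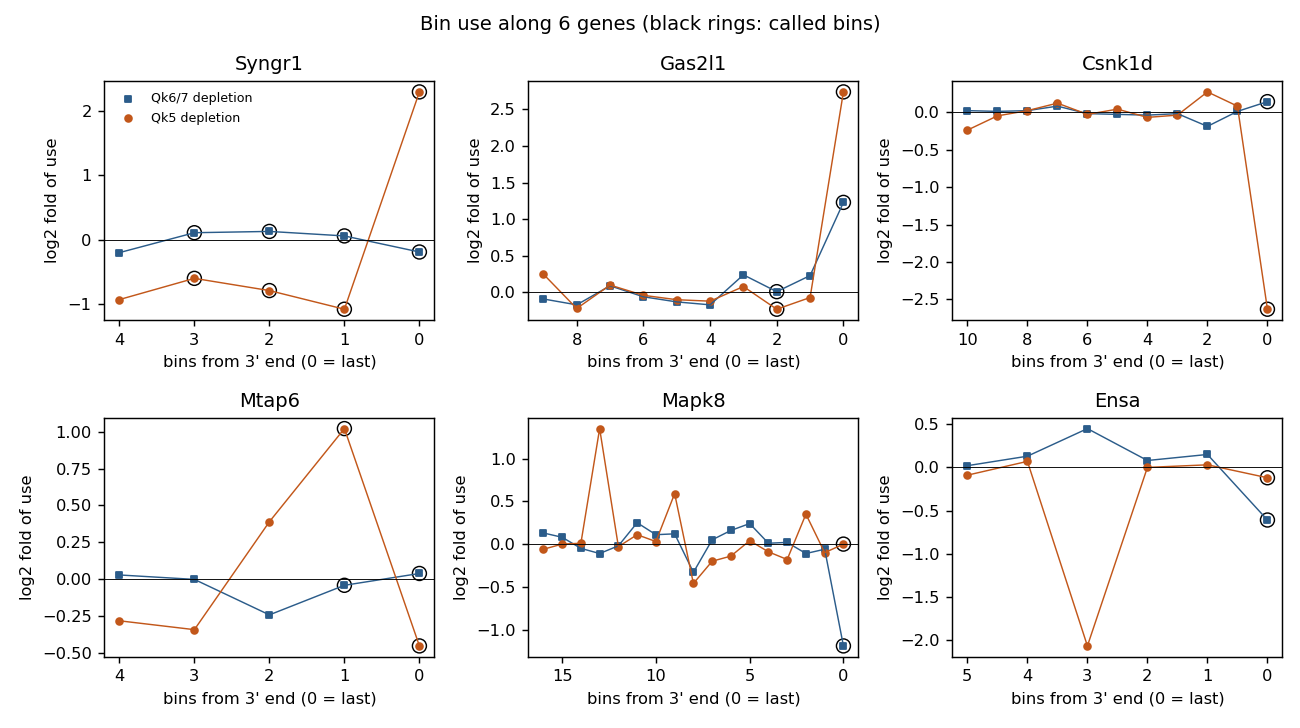
Log2 fold of use over control of every bin of 6 genes, in order towards the 3′ end (place 0 is the last bin), in Qk6/7 depletion (squares) and Qk5 depletion (circles), with black rings around called bins. The last bin stands apart at 2.30 in Syngr1, 2.74 in Gas2l1 and -2.63 in Csnk1d in Qk5 depletion, and at -1.19 in Mapk8 in Qk6/7 depletion. In Qk5 depletion an uncalled bin had a fold larger in size than either fold of the last bin in Ensa (-2.07) and in Mapk8 (1.35).

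The 35 other called last bins were those left after the naming rule had taken out the largest and smallest folds. Their small folds, none past 0.46 in absolute size, therefore follow from that rule. Lengths of the 35 ran from 999 to 8284 nt with a median of 3437 nt, against 1227 nt for the named bins, in sets split by fold. In Qk6/7 depletion 31 were lower and 4 higher, and in Qk5 depletion 13 were lower and 21 higher. Some of these were among the lowest adjusted p of last bins, and the following were picked after their values were seen. The last bin of Eda2r, a receptor of the TNF family, 3610 nt long, stood at -0.46 in Qk6/7 depletion and 0.10 in Qk5 depletion in the authors' deposited table (adjusted p = 1.61e-22). Ube2j1, a ubiquitin-conjugating enzyme of the endoplasmic reticulum, stood at -0.16 and 0.02 in the same order in the authors' deposited table (adjusted p = 2.88e-16). Tmem106b, a lysosomal membrane protein with a last bin of 5082 nt, was called with folds of only -0.05 in Qk6/7 depletion and 0.04 in Qk5 depletion in the authors' deposited table (adjusted p = 2.31e-05).

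Mtap6, a protein that stabilizes microtubules, was also picked after its values were seen, because its last 2 bins had folds of opposite sign in Qk5 depletion. The last bin, 1153 nt long, stood at 0.04 in Qk6/7 depletion and -0.45 in Qk5 depletion in the authors' deposited table (adjusted p = 3.28e-05). The bin before it, 2684 nt long, stood at -0.04 and 1.02 in the same order in the authors' deposited table (adjusted p = 2.82e-22).

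Of the 64 called last bins, 60 were separated from the bin before by at least 85 bases (93.8%, near the 91.2% of all 215 tested last bins) and 4 abutted it (Mapk8, Aph1a, Steap2 and Rps24). Abutting last bins were called in 4 of 19 tested (21.1%), and separate ones in 48 of 159 (30.2%) where the bin before was under 500 nt and in 12 of 37 (32.4%) where it was 500 nt or more. A long bin before the last can be the terminal exon of a shorter transcript. In the 12 genes of that kind the called last bin was higher in 4 and lower in 8 in Qk6/7 depletion, and likewise 4 and 8 in Qk5 depletion.

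For 47 of the 64 no other bin of the gene was called, in a table with 231 called bins over 228 genes, so nothing particular to last bins is read from that count. By strand, 31 of 116 tested last bins were called on the plus strand (26.7%) and 33 of 99 on the minus strand (33.3%). GENCODE gives more than 1 separate last exon to 26 of 63 annotated genes with a called last bin (41.3%) and to 60 of 147 with a last bin tested and not called (40.8%).

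The bin before had the opposite sign to the called last bin more often than the same sign. Among the 62 called last bins with a value for the bin before, the signs were opposite in 38 and the same in 24 in Qk6/7 depletion, and opposite in 37 and the same in 23 in Qk5 depletion. The median of the last bins was -0.18 in Qk6/7 depletion and that of the bins before 0.055. In 6 of the 62 genes the bin before was itself called. Bins of a gene are measured relative to each other, so their folds are not independent. The signs were not counted for last bins that were not called, so nothing particular to called last bins is read from these counts.

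**Figure D5:**
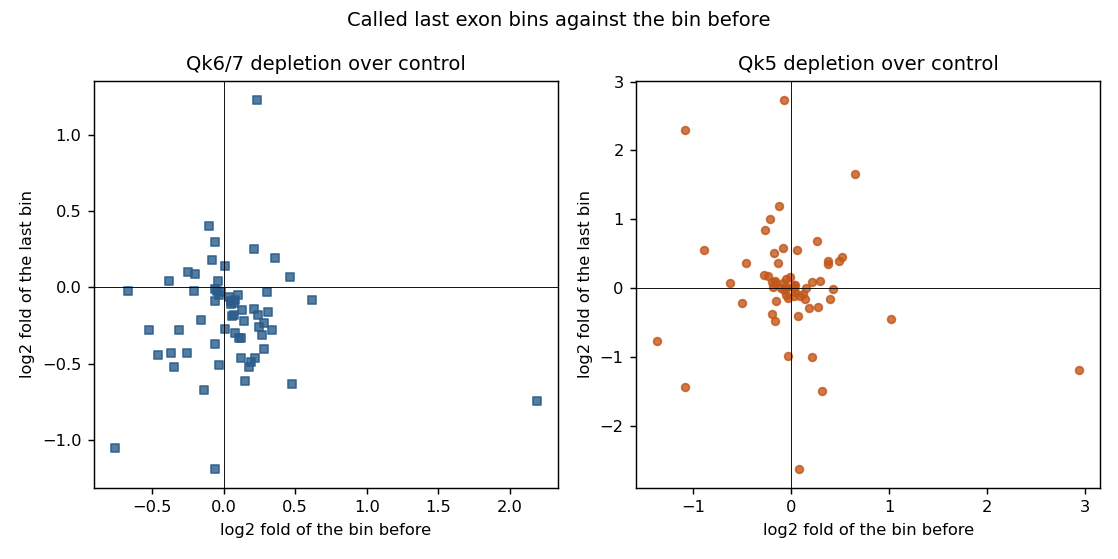
Log2 fold of use over control of the 62 called last exon bins (vertical) against that of the bin before it in the gene (horizontal), in Qk6/7 depletion (left) and Qk5 depletion (right), 1 point per gene. In Qk6/7 depletion most points lie below 0 on the vertical axis.

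Of the 64 genes with a called last bin, 9 were in the authors' deposited expression table (14.1%), near the share of all 228 genes (31, or 13.6%). In Qk6/7 depletion 4 of the 64 were called by the authors' DESeq test, against 8 of all 228 and 1.9% of genes tested. All 4 were lower (Slc41a2, Sgms2, Ero1l and Eda2r), as were 7 of the 8 and 214 of all 315 genes called in Qk6/7 depletion. Slc41a2, a magnesium transporter, was at 0.467-fold (the authors' DESeq adjusted p = 0.000309) and its last bin at -0.31 on the log2 scale, and Sgms2, a sphingomyelin synthase, at 0.459-fold (adjusted p = 0.000168) with its last bin at -0.26, in the authors' deposited table. In Qk5 depletion 4 of the 64 were called, against 23 of all 228 and 2.97% of genes tested. Ccdc141 (2.05-fold), 100043387 (1.96-fold) and Gm14326 (1.80-fold) were higher and Gas2l1 was lower in the authors' deposited table.

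Of 14 genes known for alternative last exons, 5 had a last bin in the table, of which 3 were tested and 0 called by the authors' DEXSeq test at adjusted p under 0.05, against 29.8% of all tested last bins. So few bins allow no statement on the list, and Klc1 alone among them had an unadjusted p under 0.05. The last bins of the tropomyosins Tpm1 and Tpm3, which form filaments along actin, stood at -0.02 and -0.01 in Qk6/7 depletion and -0.02 and -0.03 in Qk5 depletion in the authors' deposited table (adjusted p = 1 for both). Klc1, a kinesin light chain, stood at -0.06 in Qk6/7 depletion and -0.70 in Qk5 depletion in the authors' deposited table (adjusted p = 1, unadjusted p = 0.0394). The last bins of Tpm2 and Cdc42 were 1 and 8 nt long and had no value, so these genes' 3′ ends were not measured by the rule. All 5 genes had another bin called by the authors' DEXSeq test. In Tpm1 the bin before the last, 724 nt long, was called, at 0.05 in Qk6/7 depletion and 1.61 in Qk5 depletion. In Tpm3 the bin before the last, 79 nt long, was called, at 0.82 in Qk6/7 depletion and -0.18 in Qk5 depletion. The bin before the last was not called in Klc1, Tpm2 and Cdc42.

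Of 13 reported Quaking targets, Capzb, Rai14 and Bin1 had a last bin in the table, and 0 of these 3 were called by the authors' DEXSeq test, again too few to describe the list. Genes enter the table through any bin at adjusted p under 0.1, and all 3 of these are there through another bin that was called. Rai14, an actin-associated protein, stood at -0.10 in Qk6/7 depletion and -0.11 in Qk5 depletion in the authors' deposited table (adjusted p = 1, unadjusted p = 0.0267). The last bins of Capzb (an actin capping subunit) and Bin1 (a membrane-bending protein) had folds within 0.05 of 0. In Capzb the called bin was the one before the last, at 1.15 in Qk6/7 depletion and -0.82 in Qk5 depletion (adjusted p = 0.0392 by the authors' DEXSeq test). None of the 20 cleavage and polyadenylation factors had a last bin in the splicing table, so none could be called. Among them Cpsf1 was in the expression table and was called in neither depletion, and the others are known only to have no adjusted p under 0.1 or no test.

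Another 13 last bins lay between adjusted p of 0.05 and 0.1: Eif4e2, Cdc37l1, Tmem167, Amz2, Gpbp1, Srgap2, Fgfr1op2, Tmem140, Lcor, Cdk7, Slc44a1, Rbms2 and Tmem80. Of these 8 were lower in Qk6/7 depletion and 6 in Qk5 depletion. The largest fold among them was that of Amz2, a metalloprotease, at 0.16 in Qk6/7 depletion and 2.00 in Qk5 depletion in the authors' deposited table (adjusted p = 0.0601 by the authors' DEXSeq test). Of all tested last bins 129 had an adjusted p of 1.

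The 13 last bins with no adjusted p included 8 of up to 10 nt, all abutting the bin before, and 7 had no fold at all. The deposited folds of the other 6 reached -10.15 in Qk5 depletion (Ttll5, a tubulin glutamylase) and 11.66 in Qk6/7 depletion (Dcaf17) in the authors' deposited table. The folds of these untested last bins come without a call or an adjusted p and give no measure of change. A tested last bin of a Gm14308 unit stood at -12.29 in Qk6/7 depletion with an adjusted p of 1 in the authors' deposited table.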

How the data were processed

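RNA from C2C12 myoblasts was sequenced in 14 samples of 4 groups. The submitters' processing notes name the mm9 build and the tools TopHat2, Bowtie2, bedtools, SAMtools and DESeq, and the sources used here do not give the counting step or its strand setting. Deposited splicing tables give, per the file headers, the log2 fold of each bin's use in a pair of conditions, its dispersion score and a p-value and adjusted p-value from DEXSeq over 3 conditions. The deposited expression table gives, per the file headers, each condition's mean signal (reads scaled by size factors, called normalized counts), the fold ratio, its log2, p-values and a direction score from DESeq.

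Folds and calls are the authors' and no model was refitted. Calls were taken at adjusted p under 0.05. The number of bins and of genes tested was estimated from the deposited p and adjusted p-values. Of the expression rows, 1 broken across columns was rejoined. Last bins were assigned by script (Python 3.11.15, pandas 2.3.3), checked on simulated data. Bins were joined to GENCODE M21 by length, as described, since the builds differ, and 224 of 228 last bins had a symbol there. The members and lists were chosen with earlier results of these data known. Named bins were the 15 largest and 15 smallest folds in either depletion among called last bins. Of these, 2 are not reported here. Length classes were chosen after the data were seen.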

Additional observations from a re-analysis of the deposited data

How the results depend on the processing

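Counts of called last bins and of their directions stayed within 1.5 times at adjusted p under 0.1 (77 called). They also did so with the last bin taken among bins that have an adjusted p (68). With last bins of 700 nt or more (56), a limit chosen after the data were seen, they did so too. A limit of 50 nt left 64 called and could change nothing, since the shortest tested last bin was 67 nt long. At adjusted p under 0.01, 44 were called, with 15 lower in Qk5 depletion (25 at 0.05) and 8 higher in Qk6/7 over Qk5 depletion (13 at 0.05). Of the 29 named bins 20 had an adjusted p under 0.01.

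The subset of genes with another bin at adjusted p under 0.1 was also chosen after the data were seen. By construction it leaves out genes whose last bin was their only bin under 0.1. There 19 of 159 tested last bins were called (11.9%), against 64 of 215 (29.8%) among all tested last bins. Of the 19, 6 were higher and 13 lower in Qk6/7 depletion, and 14 higher and 5 lower in Qk5 depletion. In Qk6/7 over Qk5 depletion 5 were higher and 14 lower.

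A gap of more than 50 bases left the count of separate called bins at 60. It could not change that count, since the smallest gap among them was 85 bases. The alternative of units with a single gene was not run, since each unit has 1 symbol. No paired analysis was possible because the tables hold no value per replicate, which also kept replicates from being left out. Depth is unknown, so what it limits cannot be stated per bin.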
